A study of Mus musculus with 9 samples.

Results

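Aminoacyl-tRNA synthetases attach each amino acid to its matching tRNA and thereby supply the ribosome with charged tRNA. The genes encoding them were read here in T cell lymphoma of the C57BL/6J mouse thymus, a tumour model driven by MYCN. They were chosen by symbol among protein-coding RefSeq mouse genes: 1 capital letter followed by ars, with or without a closing 1 or 2, together with Farsa, Farsb, Eprs and Tarsl2. The rule found 38 of 21887 protein-coding genes, of which 21 encode cytosolic and 17 mitochondrial enzymes. Kars and Gars, whose products serve both compartments, were counted as cytosolic.

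Chromatin from the thymus was profiled by ChIPmentation, a form of chromatin immunoprecipitation in which a transposase adds the sequencing adapters while the chromatin is still on the antibody. Each of 7 antibodies had 1 library and 1 deposited peak list: rabbit monoclonal antibodies to H3K4me3 (clone C42D8), H3K27me3 (C36B11), p300 (D2X6N), EZH2 (D2C9) and SUZ12 (D39F6), a rabbit polyclonal antibody to H3K27ac, and an antibody to N-MYC labelled as mouse polyclonal. All libraries came from the same strain, tissue and tumour type, with no untreated, wild-type or normal thymus group among them, and 2 further libraries were inputs without a peak list. The driver and allele of the MYCN model, the age of the mice and the number of animals or tumours behind each library are not given in the sources used here. With 1 library per antibody no difference between genes or lists has a replicate check, so no p-value is given and the values describe these libraries. Among marker genes, 9 of 9 T-cell genes had an H3K4me3 and a p300 peak, and N-MYC was called at 4 of them. Of 16 markers of B cells, myeloid cells, thymic epithelium, fibroblasts, endothelium and erythroid cells, 4 had an H3K4me3 peak, including Cd79a, Epcam and Hbb-bt. A p300 or N-MYC peak was called at 0 of the 16. A given start was used for 7 T-cell markers and 9 of the other 16, and the rest were read at either end of the gene.

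Cytosolic synthetases charge the tRNAs that read nuclear messages, and several of them are held together in a multisynthetase complex. The mitochondrial enzymes, most of them encoded by separate nuclear genes, charge the tRNAs that the mitochondrial genome encodes. Genes of protein synthesis are a textbook class of MYC-family targets, and N-MYC pairs with MAX to bind the E-box CACGTG. Many cytosolic synthetase genes are also induced by ATF4 when amino acids run short, through a C/EBP-ATF response element (CARE). H3K4me3 and H3K27ac mark active promoters, and p300 is an acetyltransferase that deposits H3K27ac. EZH2 and SUZ12 are subunits of Polycomb repressive complex 2, which deposits H3K27me3.

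A start position was given by RefSeq (GRCm38.p6) for 28 of the 38 genes, 14 cytosolic and 14 mitochondrial, and peaks of the 7 lists were read within 1 kb on either side of it. The other 10, among them Cars, Hars, Lars, Nars, Rars, Vars, Wars, Hars2 and Pars2, were read at either end of the gene and are described separately.

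The promoters of 6 members are shown first because their E-box and CARE letters stand beside different N-MYC calls. Gars and Iars were among the 3 cytosolic genes of highest N-MYC fold enrichment, and Farsb among the 3 lowest. Aars, Iars and Tars held both motifs. The CARE core of Iars and the E-box of Tars lay after the start, outside the bases printed first. Aars and Qars had no N-MYC peak. The 160 bases before each start are printed 5′ to 3′ along the gene, from RefSeq GRCm38.p6: chr8:111033682-111033841 on the plus strand for Aars, chr6:55037841-55038000 on the plus strand for Gars, chr13:49681970-49682129 on the plus strand for Iars, chr15:11399659-11399818 on the minus strand for Tars, chr1:78488898-78489057 on the minus strand for Farsb, chr9:108507845-108508004 on the plus strand for Qars. Capitals mark CACGTG and the CARE core TGATGNAA, on either strand.
Aars: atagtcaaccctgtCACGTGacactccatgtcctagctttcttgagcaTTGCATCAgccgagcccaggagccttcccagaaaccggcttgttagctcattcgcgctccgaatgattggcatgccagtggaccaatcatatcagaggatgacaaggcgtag
Gars: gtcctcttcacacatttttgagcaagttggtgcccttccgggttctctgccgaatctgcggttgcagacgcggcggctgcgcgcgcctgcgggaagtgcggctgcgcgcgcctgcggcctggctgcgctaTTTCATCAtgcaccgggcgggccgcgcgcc
Iars: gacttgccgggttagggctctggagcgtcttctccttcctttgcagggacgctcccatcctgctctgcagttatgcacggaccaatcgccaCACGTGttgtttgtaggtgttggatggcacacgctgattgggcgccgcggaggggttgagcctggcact
Tars: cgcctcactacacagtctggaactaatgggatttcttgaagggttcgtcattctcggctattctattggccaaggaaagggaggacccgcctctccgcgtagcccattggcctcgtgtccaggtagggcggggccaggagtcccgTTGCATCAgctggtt
Farsb: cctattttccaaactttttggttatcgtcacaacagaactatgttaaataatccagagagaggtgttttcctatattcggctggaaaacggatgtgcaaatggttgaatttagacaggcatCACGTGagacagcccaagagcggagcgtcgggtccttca
Qars: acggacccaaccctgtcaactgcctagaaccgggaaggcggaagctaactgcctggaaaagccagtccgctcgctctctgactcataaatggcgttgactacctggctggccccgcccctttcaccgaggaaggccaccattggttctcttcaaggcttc
Counted from the start, with the base before it as -1, the E-box of Aars began at -146 and its CARE core at -112. The E-box began at -69 in Iars and at -39 in Farsb, and the CARE core at -30 in Gars and at -15 in Tars. The printed stretch of Qars held neither.

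Other matches lay within the first bases of the transcript. Those of 4 genes are shown with their flanks because Ears2 had the strongest N-MYC peak of all members, and because Tars, Iars and Yars each carried a second motif or their only one there: chr7:122067052-122067073 on the minus strand for Ears2, chr15:11399626-11399647 on the minus strand for Tars, chr13:49682129-49682152 on the plus strand for Iars, chr4:129189898-129189921 on the plus strand for Yars. Capitals again mark the E-box in Ears2 and Tars and the CARE core in Iars and Yars.
Ears2: aaggagccCACGTGtgtgtttc
Tars: cctgtggcCACGTGgcgcacgc
Iars: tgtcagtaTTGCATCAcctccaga
Yars: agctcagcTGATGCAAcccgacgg

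All 28 synthetase genes carried the chromatin marks of active promoters. H3K4me3 was called at 28 of 28 starts, against 52.1% of the 17492 protein-coding genes with a given start, and H3K27ac at 28 of 28, against 52.2%. p300 was called at 26 (40.6% of all starts), N-MYC at 24 (34.0%) and EZH2 at 22 (46.0%). SUZ12 was called at 0 of 28 (12.8%) and H3K27me3 at 1 (24.3%), which was Tarsl2. Since each of these starts had H3K4me3, the 9119 starts with that mark form a closer background: there H3K27ac was called at 93.4%, p300 at 77.5%, N-MYC at 64.8%, EZH2 at 74.0%, SUZ12 at 9.60% and H3K27me3 at 14.5%. The EZH2 share of the synthetases, 78.6%, was near that background, and the N-MYC share, 85.7%, lay above it. The lists hold sites with a q-value of at most about 0.01, and a start without a peak is one where the authors' threshold was not passed, which is weaker than absence of the factor.

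The most frequent combination was H3K4me3, H3K27ac, p300, N-MYC and EZH2 together without SUZ12 or H3K27me3. It was found at 19 of the 28 genes, against 25.4% of all starts and 48.7% of those with H3K4me3. These were 10 cytosolic genes (Dars, Eprs, Farsa, Farsb, Gars, Kars, Mars1, Sars, Tars and Yars) and 9 mitochondrial ones (Ears2, Fars2, Iars2, Mars2, Nars2, Rars2, Tars2, Vars2 and Yars2). EZH2 alone was missing at Iars, Cars2 and Wars2, N-MYC alone at Aars and Sars2, and p300 alone at Lars2. Qars lacked both N-MYC and EZH2, Aars2 had only H3K4me3 and H3K27ac, and Tarsl2 lacked EZH2 and had H3K27me3.

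**Figure D1:**
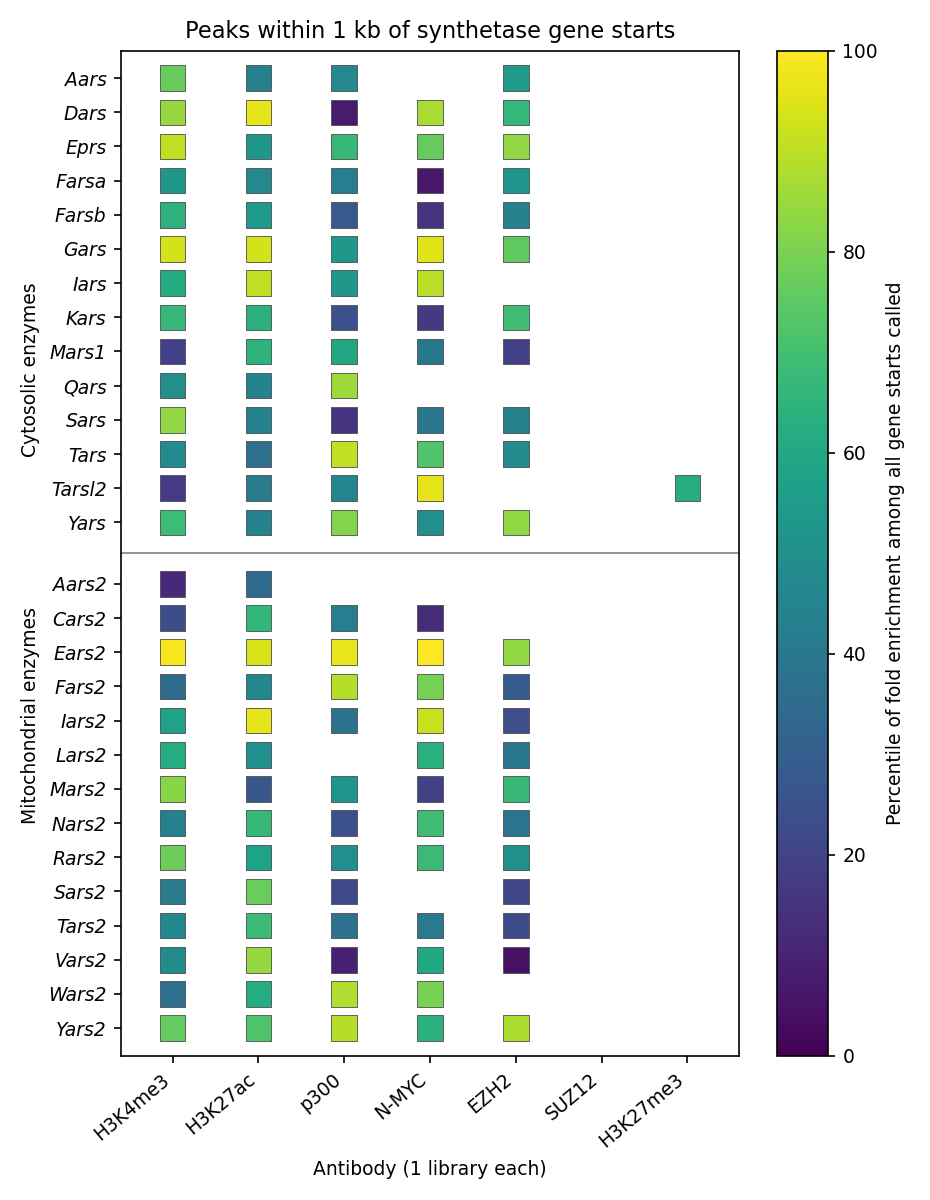
Peaks within 1 kb of the start of 28 synthetase genes (rows, cytosolic above the line, mitochondrial below) in 7 lists (columns). A filled square is a called peak, its colour the percentile of the strongest peak's fold enrichment among all protein-coding starts called in that list; an empty place is no call, and the SUZ12 column is empty.

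N-MYC was called at 12 of 14 cytosolic and 12 of 14 mitochondrial genes. EZH2 was called at 11 of 14 in both compartments, but this equality depended on the length of the lists. When only the 9798 peaks of smallest q-value per list were read, EZH2 was called at 10 cytosolic and 7 mitochondrial genes. The full EZH2 list holds 18730 peaks, and shares over all starts were not computed for lists of equal length. p300 was called at 14 of 14 cytosolic and 12 of 14 mitochondrial genes. The combination of H3K4me3, H3K27ac, p300, N-MYC and EZH2 without SUZ12 or H3K27me3 was found at 10 and 9 (9 and 5 with lists of equal length). With 14 genes on each side, a difference of 1 or 2 genes is 1 or 2 calls in a single library.

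Strength of the peaks was compared through the authors' fold enrichment, a linear ratio over the background of the peak caller, taken for the strongest peak in each window. For H3K4me3 the median was 31.1 at the cytosolic genes (range 13.9 to 41.0) and 25.8 at the mitochondrial genes (10.1 to 45.8), with 26.6 over all starts called. The strongest H3K4me3 was at Gars (41.0) and Eprs (39.6) among the cytosolic and at Ears2 (45.8) and Mars2 (36.1) among the mitochondrial genes. The EZH2 medians were 6.03 (4.41 to 8.21) and 5.28 (3.58 to 8.71), with 5.83 over all starts called. H3K27ac went the other way, with 12.4 (10.1 to 26.6) and 15.6 (8.44 to 26.6), and 12.4 over all starts called. p300 gave 5.40 (3.62 to 8.25) and 5.21 (3.71 to 9.62), with 5.40 over all starts called. In both lists the cytosolic median was thus near that of all starts called. N-MYC gave 6.87 (3.74 to 12.7) and 7.14 (4.14 to 16.3). The ranges of the compartments overlapped over most of their length in all 5 lists. Relative to the N-MYC peaks at all starts called, whose median was 6.01, 15 of the 24 synthetase peaks lay above the 50th percentile. These were 6 of the 12 cytosolic and 9 of the 12 mitochondrial peaks.

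**Figure D2:**
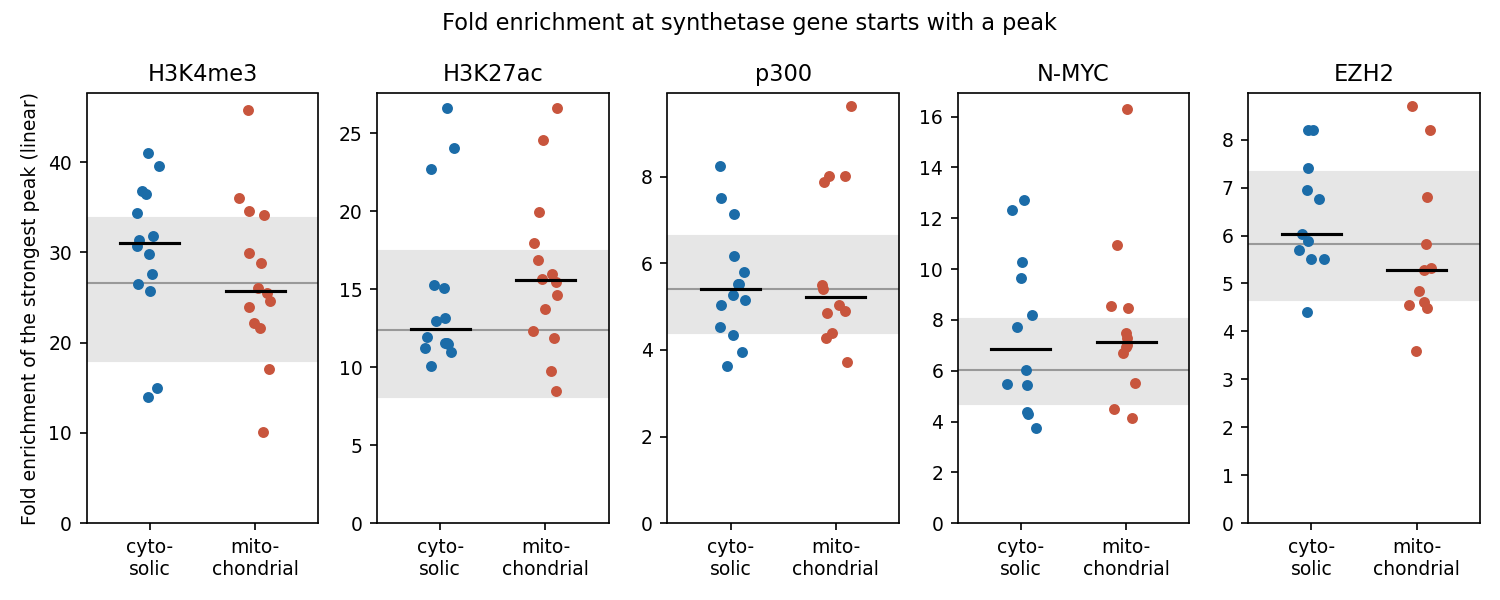
Authors' fold enrichment (linear axis from 0) of the strongest peak within 1 kb of each synthetase gene start that had one, by compartment, for 5 antibodies with 1 library each. Points are genes, black bars medians of the compartment, the grey line and band the median and the middle range between the 25th and 75th percentile of all protein-coding starts called; the compartments overlap in every panel.

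N-MYC fold enrichment ranged from 3.74 to 16.3 among the members. The strongest peak was at Ears2, the mitochondrial glutamyl-tRNA synthetase (chromosome 7, start 122067086), with 16.3, above 99.3% of all starts called. Tarsl2, a cytosolic threonyl-tRNA synthetase related to Tars, had 12.7, Gars (glycine) 12.3 and Iars (isoleucine) 10.3. Among the mitochondrial genes Iars2 followed Ears2 with 10.9 and Wars2 (tryptophan) with 8.56. Both isoleucine enzymes thus stood near the top of their compartments. The weakest cytosolic peaks were at Farsa (3.74) and Farsb (4.30), which encode the 2 subunits of the cytosolic phenylalanine enzyme, and at Kars (lysine, 4.36). The weakest mitochondrial peaks were at Cars2 (cysteine, 4.14), Mars2 (methionine, 4.48) and Tars2 (threonine, 5.51). Farsa lay at the 6.07th and Cars2 at the 12.4th percentile of all starts called.

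Aars, Qars, Aars2 and Sars2 had no N-MYC peak in the window. At Aars (alanine, chromosome 8, start 111033842) the nearest N-MYC peak lay 22.4 kb downstream (fold enrichment 4.52), although H3K4me3 reached 34.4, p300 5.27 and EZH2 6.03 at its start. At Qars (glutamine, chromosome 9, start 108508005) it lay 8.55 kb downstream (8.22), with H3K4me3 of 26.5 and a p300 peak of 7.51 at the start, above 85.3% of starts called. At Aars2 (chromosome 17, start 45506832) the nearest N-MYC peak lay 17.6 kb upstream, and at Sars2 (chromosome 7, start 28741968) 15.0 kb upstream. Aars2 also had the weakest H3K4me3 of the 28 genes, 10.1, at the 11.5th percentile. p300 was missing at Aars2, with the nearest peak 31.5 kb away, and at Lars2 (leucine), with the nearest 95.0 kb away. Both alanine enzymes were thus without an N-MYC call, at very different H3K4me3 levels.

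The highest EZH2 fold enrichments were at Yars2 (8.71) and at Eprs, Yars and Ears2, which shared the value 8.21. Both tyrosine enzymes were among these 4. At Yars and Ears2 the EZH2 summit lay at -721 and -432 bp, beyond a divergent start (S100pbp at -427 bp, Ubfd1 at -112 bp). The EZH2 peaks of Yars and Ears2 thus cannot be assigned to the synthetase gene alone. All 4 also had N-MYC (6.01 at Yars to 16.3 at Ears2) and p300, and none had SUZ12 or H3K27me3. The nearest SUZ12 peak to their starts lay 49.7 kb (Yars), 85.1 kb (Yars2), 89.8 kb (Eprs) and 331 kb (Ears2) away. The weakest EZH2 peak was at Vars2 (valine, 3.58), at the 4.66th percentile.

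EZH2 was not called at Iars, Qars, Tarsl2, Aars2, Cars2 and Wars2. The nearest EZH2 peaks lay 5.68 kb (Cars2), 9.08 kb (Qars), 22.6 kb (Aars2), 28.6 kb (Iars), 48.8 kb (Tarsl2) and 93.1 kb (Wars2) from the start. Their H3K4me3 fold enrichments were 29.8 at Iars, 26.5 at Qars, 22.2 at Wars2, 17.1 at Cars2, 13.9 at Tarsl2 and 10.1 at Aars2. Of these 6, Iars lay just above the median of all 28 genes (29.3) and the other 5 below it, and the 9 members of highest H3K4me3 all had EZH2. Tarsl2 and Iars combined strong N-MYC (12.7 and 10.3) with no EZH2 call, so a strong N-MYC peak was not always accompanied by EZH2.

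When all starts with H3K4me3 were divided into 4 groups of equal size by its fold enrichment, EZH2 was called at 40.8% of the lowest, 64.7% of the second, 91.5% of the third and 99.0% of the highest group. The synthetase counts were 1 of 4, 6 of 8, 6 of 7 and 9 of 9. N-MYC was called at 33.4, 66.1, 74.8 and 84.9% of all such starts and at 3 of 4, 6 of 8, 7 of 7 and 8 of 9 synthetase starts. p300 was called at 38, 81.9, 92.5 and 97.3%, and at 3 of 4, 8 of 8, 6 of 7 and 9 of 9 synthetase starts. EZH2 calls were thus more frequent at higher H3K4me3 both at synthetase starts and at all starts. The part of H3K4me3 in the missing EZH2 calls was not tested.

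**Figure D3:**
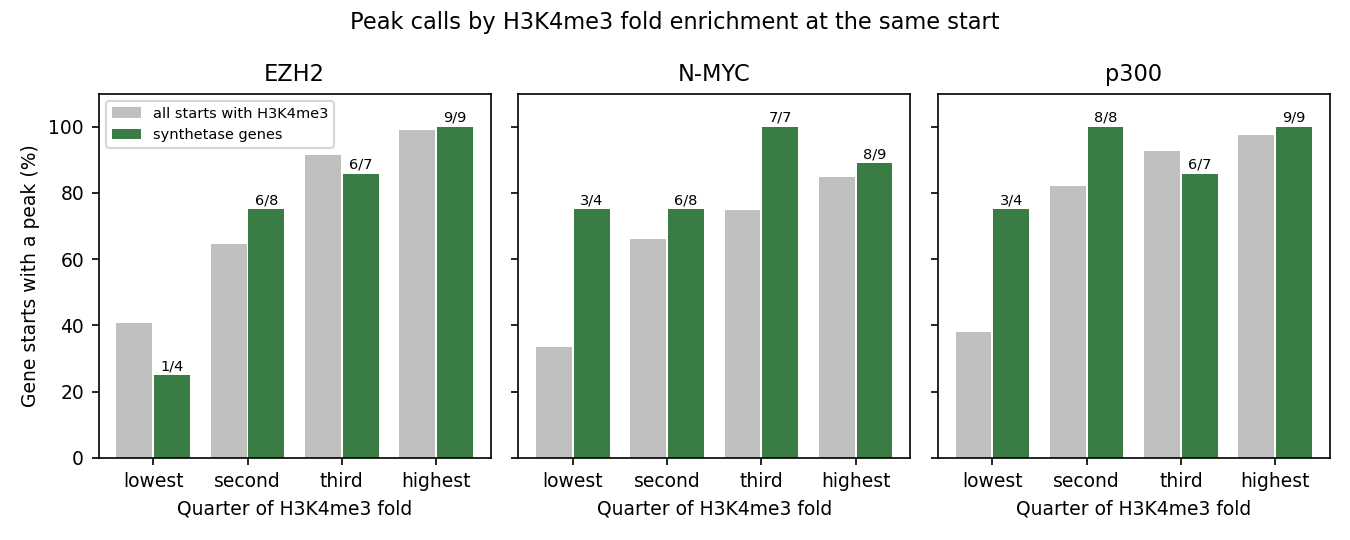
Percentage of gene starts with an EZH2, N-MYC or p300 peak (y axis) in 4 equal groups of increasing H3K4me3 fold enrichment at the same start (x axis), for all starts with H3K4me3 (grey) and the 28 synthetase genes (green, with counts). In both sets the EZH2 share is lowest in the lowest group (40.8% and 1 of 4) and highest in the highest (99.0% and 9 of 9).

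Tarsl2 (chromosome 7, start 65644898) was the 1 gene with a Polycomb mark among the 28 with a given start. Its H3K27me3 peak (chromosome 7, 65642154 to 65644310, fold enrichment 11.0) had its summit at -1583 bp from the start and ended upstream of it. The N-MYC peak of fold enrichment 12.7 (65644676 to 65645480) and the H3K4me3 peak of 13.9 lay over the start, with p300 at 5.15 and H3K27ac at 11.0. Neither SUZ12 nor EZH2 was called there. Wars2 and Yars2 had H3K27me3 peaks just outside the window, 1.38 kb (fold enrichment 4.04) and 1.99 kb (5.56) upstream.

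For 8 amino acids both compartments had a gene with a given start, which gave 10 pairs because phenylalanine and threonine each had 2 cytosolic genes. N-MYC was called at both genes of 8 pairs and was stronger at the mitochondrial gene in 5 and at the cytosolic gene in 3. Fars2 and Tars2 each entered 2 of these pairs, so the pairs are not independent. Ears2 had 16.3 and Eprs, the fused glutamate and proline enzyme, 8.20. Fars2 had 8.48, against 3.74 at Farsa and 4.30 at Farsb. Iars and Iars2 were close, at 10.3 and 10.9, and Yars and Yars2 had 6.01 and 7.0. The N-MYC summit at Yars lay at -749 bp, beyond the divergent start of S100pbp (-427 bp). Divergent starts also lay upstream of Ears2 (Ubfd1, -112 bp) and Fars2 (Lyrm4, -286 bp). The cytosolic gene was stronger for methionine (5.48 at Mars1, 4.48 at Mars2) and for threonine (7.73 at Tars and 12.7 at Tarsl2, 5.51 at Tars2). For serine N-MYC was called at Sars (5.45) and not at Sars2. H3K4me3 was stronger at the cytosolic gene in 6 of 10 pairs, H3K27ac in 4 of 10, p300 in 4 of 9 and EZH2 in 4 of 7, where Eprs and Ears2 had the same value. No list favoured 1 compartment in every pair.

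The multisynthetase complex contains 8 of the cytosolic enzymes, of which 6 had a given start. N-MYC was called at 5 of these 6 (Dars, Eprs, Iars, Kars and Mars1, not Qars), with a median fold enrichment of 8.20 (4.36 to 10.3). At the 8 cytosolic genes outside the complex it was called at 7, with a median of 6.01 (3.74 to 12.7). EZH2 was called at 4 of 6 and 7 of 8, and H3K4me3 medians were 30.6 and 31.3. The ranges overlapped in each list.

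The median summit positions differed between the lists, with wide variation between genes. H3K4me3 summits were a median of 287.5 bp into the gene and H3K27ac summits 256 bp, with 25 and 26 of 28 on the transcribed side. N-MYC summits were at a median of 77 bp, with 19 of 24 downstream, and p300 summits at 13 bp, with 14 of 26 downstream. EZH2 summits had a median of 160 bp, with 17 of 22 downstream. Single genes departed from the order of these medians: at Dars the p300 summit (626 bp) lay beyond those of H3K4me3 (342 bp) and N-MYC (43 bp), and at Yars2 the EZH2 summit (730 bp) lay beyond that of H3K4me3 (303 bp). Over all starts called the medians were 279 bp for H3K4me3, 237 bp for H3K27ac, -8 bp for N-MYC, -21 bp for p300 and 263 bp for EZH2. The median N-MYC summit of the synthetases was thus farther into the gene than that over all starts, and the median EZH2 summit less far, by less than the range among the members.

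**Figure D4:**
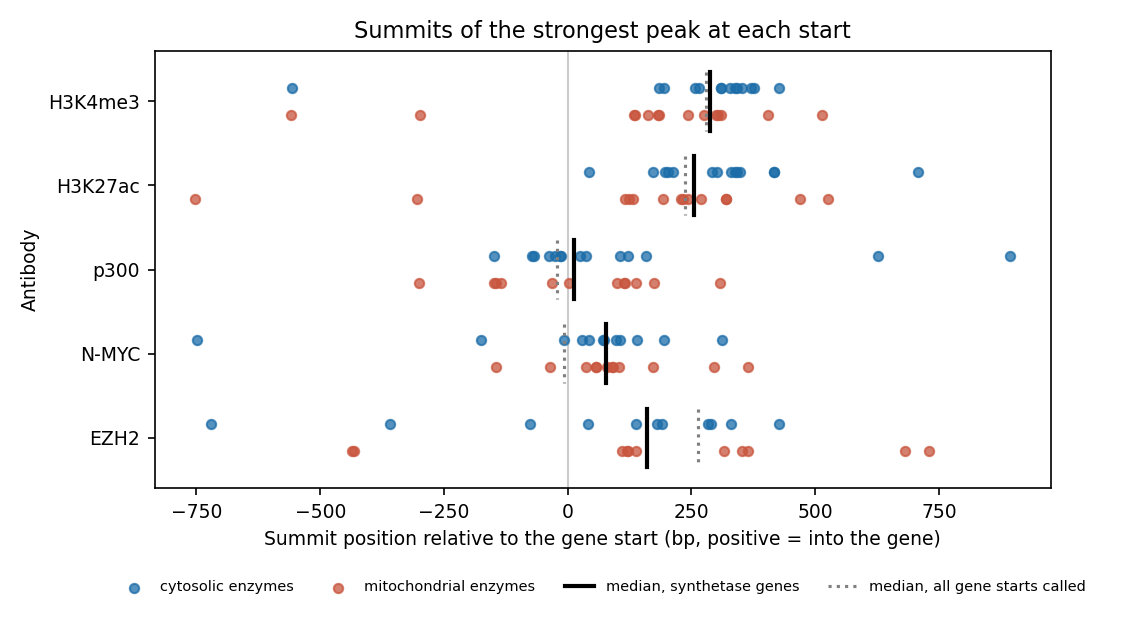
Position of the summit of the strongest peak relative to the gene start (x axis, bp, positive into the gene) for 5 antibodies (rows); points are synthetase genes, black bars their medians and dotted bars the medians of all protein-coding starts called. H3K4me3 and H3K27ac summits sit mostly between 100 and 500 bp into the gene, p300 and N-MYC summits nearer the start.

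Some starts were shared with another gene. A divergent protein-coding start lay within 1 kb upstream of 6 of the 28 genes (21.4%), and 9.99% of all starts had another given start in their window. These were Kars with Terf2ip (at -5 bp), Yars with S100pbp (-427 bp), Ears2 with Ubfd1 (-112 bp), Fars2 with Lyrm4 (-286 bp), Rars2 with Orc3 (-15 bp) and Sars2 with Mrps12 (-147 bp), 2 cytosolic and 4 mitochondrial. At these starts a peak cannot be assigned to 1 of the 2 genes. Several summits there lay on the upstream side, such as H3K4me3 at Kars (-556 bp) and Ears2 (-560 bp), and both N-MYC (-749 bp) and EZH2 (-721 bp) at Yars.

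The windows of 300 bases that RefSeq gives for each start, 250 before and 50 after it, were searched on both strands for 5 short motifs. CACGTG occurred in 5 of 28 synthetase windows (17.9%), 4 cytosolic (Aars, Farsb, Iars and Tars) and 1 mitochondrial (Ears2). It occurred in 8.91% of all windows and 12.2% of those of starts with H3K4me3. Of the 5, N-MYC was called at 4 with a median fold enrichment of 9.0, and its summit lay 107 bp (Farsb), 95 bp (Iars), 84 bp (Tars) and 80 bp (Ears2) from the middle of the motif. Of the 23 windows without CACGTG, 20 had an N-MYC call, with a median of 6.96. Over all starts with H3K4me3 the shares with N-MYC were 78.0% with and 63.0% without the motif, and the median folds 6.54 and 5.96. Aars, printed above, thus held the E-box without an N-MYC call, while Gars and Tarsl2 had strong N-MYC peaks without it in this window.

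The CARE core TGATGNAA was found in 5 cytosolic windows (Aars, Gars, Iars, Tars and Yars) and in 0 of the 14 mitochondrial ones. All windows held it in 4.13% and those with H3K4me3 in 2.51% of cases. Aars held it at 2 places, beginning at -112 and at base 10 of the transcript. N-MYC was called at 4 of these 5 genes, with fold enrichments from 6.01 at Yars to 12.3 at Gars. The variant E-box CACGCG was found in 7 of 28 windows (13.7% of all, 21.6% with H3K4me3), the ETS core CCGGAAG in 9 (12.9% and 22.2%) and the NRF1 core in 5 (7.17% and 12.6%). The ETS core was spread over both compartments, with 5 cytosolic and 4 mitochondrial genes. NRF1 cores and E-box variants can share letters, as they did in Tars, Iars2 and Mars2. A match is a string of letters in this window and not a measured site.

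The 10 genes without a given start were read at both ends. An H3K4me3 and an H3K27ac peak lay at an end of 10 of 10, p300 at 9, N-MYC at 8, EZH2 at 8, SUZ12 at 0 and H3K27me3 at 1. Among the 4395 protein-coding genes read this way the shares were 46.3, 49.5, 33.8, 28.4, 44.8, 17.2 and 31.7%. Over all 38 genes this gave H3K4me3 and H3K27ac at 38, p300 at 35, N-MYC at 32, EZH2 at 30, SUZ12 at 0 and H3K27me3 at 2. The corresponding shares of all 21887 genes were 51.0, 51.6, 39.3, 32.9, 45.8, 13.7 and 25.8%. N-MYC had a fold enrichment of 9.59 at Wars and 7.78 at Vars, and was not called at Nars and Rars. Rars had H3K4me3 of 37.7 and EZH2 of 7.61 with neither N-MYC nor p300. EZH2 was not called at Lars and Pars2, and at Cars its fold enrichment was 2.63. The H3K27me3 peak was at Nars (6.30), with its summit 1229 bp beyond the upper end of the gene and outside the window. The H3K4me3 (35.7) and EZH2 (5.33) summits of Nars were at -192 and -100 bp from that end, inside the gene. Hars and Hars2 abut on chromosome 18 (36783205 and 36783202), so both were read from the same peaks there: H3K4me3 of 28.3, N-MYC of 4.05 and EZH2 of 5.03.

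Other genes of tRNA charging and of the amino acid response were read from a list of 18. Of these, 16 were read at a given start, and Gatb and Sepsecs at either end of the gene. All 18 had H3K4me3 and H3K27ac, 16 had p300, 16 N-MYC and 13 EZH2, with SUZ12 and H3K27me3 at 1. The combination of H3K4me3, H3K27ac, p300, N-MYC and EZH2 without SUZ12 or H3K27me3 was found at 11. Among all given starts with H3K4me3 the shares were 77.5% for p300, 64.8% for N-MYC, 74.0% for EZH2 and 48.7% for the combination. The EZH2 count was near that background. The 3 scaffold proteins of the multisynthetase complex all had N-MYC: Eef1e1 with 16.2, Aimp2 with 6.80 and Aimp1 with 5.79. The mitochondrial glutamine and formyl-methionine route (Qrsl1, Gatb, Gatc and Mtfmt) had N-MYC at 4 of 4, from 5.19 at Qrsl1 to 8.22 at Gatb. Of the trans-editing genes, Dtd1 had N-MYC of 9.71 and Aarsd1 none. In the amino acid response, Atf4 had N-MYC of 6.05 and p300 of 8.51, and Ddit3 had 8.56 and 7.13. Asns, the asparagine synthetase gene, carried SUZ12 (3.74), H3K27me3 (6.44) and EZH2 (5.01) beside N-MYC (5.49) and H3K4me3 (13.7). Trib3 had H3K4me3 (10.5) and H3K27ac (3.0) and no other call.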

How the data were processed

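ChIPmentation libraries of 7 antibodies gave 1 narrowPeak list each; 2 inputs had no list. The submitters' processing notes name FastQC, Bowtie2, SAMtools, MACS2 and deepTools and the builds mm10 and GRCm38, without versions, settings or roles; the control and any pooling are not given in the sources used here. The deposited fold enrichment is the authors' linear ratio per peak and was used only within a list. Deposited p-values and q-values are −log10 values, with a minimum −log10 q between 2.00 and 2.08 in each list. The deposited score equals 10 times the −log10 q and was not used. Read depth per library is unknown, which limits the precision of a missing call.

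Peaks were read with Python 3.11.15, by an overlap of at least 1 bp with the start ± 1 kb, and the strongest peak represented a window. Starts came from the RefSeq promoter table (GRCm38.p6), given for 17492 of 21887 protein-coding genes. The plan had named the outer end of the gene record, which became an alternative once the table was seen. H3K4me3 summits lay within 1 kb of a start in 50.0% of cases, and in 3.34 to 3.62% with starts moved by 5 or 100 kb. The reading code was run on simulated peaks planted inside the window, and 200 of 200 were found. This checks the code only and does not measure missed peaks in the real lists.

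Genes named were, per compartment, the 3 highest and 3 lowest for N-MYC and the 2 highest for EZH2 and H3K4me3. Every member with a SUZ12 or H3K27me3 call was named, and members lacking a call in lists where 12 or fewer did. Same-amino-acid pairs and shared starts were named too. Other genes singled out, among them members with no given start and pathway genes, were chosen after their values were seen. Members and lists were chosen with earlier results of these data known. The alternatives covered the window, the summit, thresholds, list length and the definition of the start. Values of some single genes are not reported here.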

Additional observations from a re-analysis of the deposited data

How the results depend on the processing

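Of 347 alternative values, 333 stayed within 1.5 times the count, or within 1 SD over genes for a median, and 14 moved. The SD over genes is a wide limit for a median, such as 259 bp for the H3K4me3 summit median of 287.5 bp. None of the 40 summit and 90 fold medians moved by it, so their part of the tally is a weak check. The 24 N-MYC calls stayed within that factor under each alternative run. The H3K27me3 count of 1 became 0 with a window of 500 bp or the summit inside the window (cytosolic 0), 3 with 2 kb (mitochondrial 2), 2 at the outer end of the gene record (mitochondrial 1), and 2 with all 38 genes (cytosolic 2). With all 38 genes, cytosolic EZH2 calls were 17 of 21, a larger set. With lists of equal length (9798 peaks), mitochondrial EZH2 calls fell to 7 of 14 (cytosolic 10). There H3K4me3, H3K27ac, p300, N-MYC and EZH2 together without SUZ12 or H3K27me3 were found at 5 of 14 mitochondrial genes, down from 9. The cytosolic count went from 10 to 9. Fars2, Iars2, Tars2 and Vars2 left the mitochondrial count because their EZH2 peaks were weak and not in the shortened list. The share over all starts was not computed for these lists. Before the start only, CACGTG was in 3 windows. The outer end of the record missed every peak called at Tars2. This alternative was added after the data were seen, as were the 38 genes and the shortened motif window. Other transcript starts were not run separately, and a 500 bp sequence window was not run without a genome. No paired analysis was possible because each antibody had 1 library.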
